A study of Mus musculus with 12 samples.

Results

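Mitochondrial ribosomal protein genes are the nuclear genes that encode the protein part of the ribosome inside mitochondria. They were taken from the gene table as the protein-coding genes whose symbol starts with Mrpl or Mrps followed by a digit. This gave 78 of 56748 genes, 49 with an Mrpl symbol (large subunit) and 29 with an Mrps symbol (small subunit). RNA came from kidneys of mice labelled C57bl/6-wt and was sequenced in 3 groups of 4 samples. All of the mice had received cisplatin, a platinum drug that injures the kidney tubule. The AKI group (acute kidney injury) had cisplatin and no cells. The UC group had cisplatin and mesenchymal stem cells (MSC) from umbilical cord. The pFUS_UC group had cisplatin and such cells, together with pulsed focused ultrasound. No uninjured kidney and no kidney with ultrasound alone was analysed here. The sources used here give no age of the animals, cell dose or time of sampling. Nothing in the labels says whether the samples of a group came from separate animals, so p-values measure the spread between these samples, which may be technical in part.

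Mitochondria keep a small genome of their own, and its messenger RNAs, which encode core subunits of the respiratory chain, are translated only by this ribosome. Its ribosomal RNAs are made in the mitochondrion, while all of its proteins are made in the cytosol and imported. Part of the proteins have relatives in bacterial ribosomes, and part were gained in the mitochondrial lineage. The kidney tubule depends on oxidative phosphorylation for salt and solute transport, and mitochondrial damage is a known feature of cisplatin injury.

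The symbol letter does not always give the place of a protein. Mrps30 and Mrps18a sit in the large subunit, and Mrps36 is now known as an adaptor of the 2-oxoglutarate dehydrogenase complex. Counting by place gave 51 large-subunit genes, 26 small-subunit genes and 1 gene in neither. The results below use the symbol unless the place is named.

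Library totals were 17.3 to 25.2 M (mega) counts. A gene with no count may still be present at up to 3 counts, which was 0.119 to 0.173 CPM (counts per M counts) in these libraries. This limit covers counting error only. Of the 78 genes 77 passed the filter on low counts. The one that did not was Mrpl53 (ENSMUSG00000030037, chromosome 6, 83086021 to 83086920), a mitochondrion-specific large-subunit gene with 0 counts in each of the 12 libraries. It shares its locus with Ccdc142os and Gm42688, and whether that overlap bears on its count was not tested. In all, 41 of the 78 genes overlapped another annotated gene, 25 of them a protein-coding one, and the sources used here do not give the strand setting of the count.

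Promoter sequences were read from RefSeq (GRCm38.p6; 250 bases before to 50 bases after the gene start), where 69 of the 78 genes had an entry. Mrpl4, Mrpl13, Mrpl15, Mrpl19, Mrpl38, Mrpl54, Mrps28, Mrps34 and Mrps35 had none. Short motifs of regulators linked to nuclear genes of mitochondria were searched on both strands. They were GCGCATGC for NRF1 (nuclear respiratory factor), CCGGAAG for the ETS family that includes GABP, and AANATGGCG for YY1. The NRF1 letters and their reverse complement, GCATGCGC, overlap, so 1 site can match on both strands. The promoters shown are those of the members with the largest rise in UC (Mrpl33) and in pFUS_UC (Mrps21), and of the Mrps18 paralogues, which moved in different directions. Capitals mark the motifs.
Mrpl33 (chr5:31613701-31614000, plus strand): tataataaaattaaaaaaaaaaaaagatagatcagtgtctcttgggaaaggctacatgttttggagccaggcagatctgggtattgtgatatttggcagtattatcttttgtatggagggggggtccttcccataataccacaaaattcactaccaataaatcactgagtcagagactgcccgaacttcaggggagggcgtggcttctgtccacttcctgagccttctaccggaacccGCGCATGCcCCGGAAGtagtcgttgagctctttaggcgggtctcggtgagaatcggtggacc
Mrps21 (chr3:95871465-95871764, minus strand): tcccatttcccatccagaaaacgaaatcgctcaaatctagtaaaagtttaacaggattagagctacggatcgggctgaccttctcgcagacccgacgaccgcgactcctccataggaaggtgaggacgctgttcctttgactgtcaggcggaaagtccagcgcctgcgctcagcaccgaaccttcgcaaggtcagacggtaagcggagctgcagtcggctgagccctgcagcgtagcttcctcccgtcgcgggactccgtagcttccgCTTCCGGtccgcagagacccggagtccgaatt
Mrps18a (chr17:46110754-46111053, plus strand): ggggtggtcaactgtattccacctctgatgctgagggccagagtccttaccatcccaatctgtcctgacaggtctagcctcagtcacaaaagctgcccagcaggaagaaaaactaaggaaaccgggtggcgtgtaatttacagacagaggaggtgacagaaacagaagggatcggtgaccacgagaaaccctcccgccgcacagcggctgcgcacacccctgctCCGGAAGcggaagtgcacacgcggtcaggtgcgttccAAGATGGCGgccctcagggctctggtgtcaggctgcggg
Mrps18b (chr17:35916391-35916690, minus strand): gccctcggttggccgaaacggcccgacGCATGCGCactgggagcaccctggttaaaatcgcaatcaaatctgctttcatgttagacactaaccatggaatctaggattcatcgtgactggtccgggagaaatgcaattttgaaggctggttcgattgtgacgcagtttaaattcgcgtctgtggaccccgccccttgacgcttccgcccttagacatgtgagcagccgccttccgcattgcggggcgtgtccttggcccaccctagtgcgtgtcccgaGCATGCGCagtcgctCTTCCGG
Mrps18c (chr5:100798509-100798808, plus strand): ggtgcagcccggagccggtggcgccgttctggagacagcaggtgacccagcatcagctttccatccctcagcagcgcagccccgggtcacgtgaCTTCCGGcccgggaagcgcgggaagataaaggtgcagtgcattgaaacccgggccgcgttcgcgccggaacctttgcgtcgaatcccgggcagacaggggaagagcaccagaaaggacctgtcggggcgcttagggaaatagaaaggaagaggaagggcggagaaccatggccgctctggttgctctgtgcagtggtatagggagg
An ETS motif was present in 25 of the 69 promoters (36.2%), against 9.12% of 27025 promoters in the table and 16.6% of the 11910 whose gene was tested for expression. A YY1 motif was present in 11 (15.9%, against 2.51% and 4.71%) and an NRF1 motif in 8 (11.6%, against 2.8% and 4.85%). At least 1 of the 3 motifs was found in 36 promoters (52.2%, against 13.3% and 23.8%). Among the 43 Mrpl promoters 14 held an ETS motif, 6 a YY1 motif and 7 an NRF1 motif, and among the 26 Mrps promoters 11, 5 and 1. Among the 45 promoters whose gene was called higher in both MSC groups against AKI, 33.3% held an ETS motif, 15.6% a YY1 motif and 4.44% an NRF1 motif. Among the 19 whose gene was called higher in neither, 42.1% held an ETS motif, 15.8% a YY1 motif and 31.6% an NRF1 motif. For NRF1 these are 2 and 6 promoters. These shares are descriptions of letters in a window.

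Many of these genes share a promoter region with a neighbour. For 23 of the 78 (29.5%) a gene on the other strand started within 1000 bases in head-to-head orientation, against 11% of 14172 tested protein-coding genes. Mrps18b starts 45 bases from Ppp1r10 and Mrps18c 29 bases from Helq. Mrpl36 overlaps the start of Ndufs6, a complex I subunit gene. Some partners moved alike and some did not, with 1 example of each given here. Against AKI in UC, Mrps18c was at a log2 fold change of 1.11 and Helq at 0.12 (edgeR adjusted p = 0.533). In the same comparison Mrpl32 was at 0.62 and Psma2, a proteasome subunit gene, at 0.58 (both called).

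Expression per length was compared in the authors' FPKM values (fragments per kilobase and M fragments). Over all 12 libraries the FPKM level of the 78 genes had a median of 19.8 and a range from 0 to 175. The highest levels were those of Mrpl12 at 175, Mrpl34 at 157 and Mrps21 at 145. Mrpl12 forms the flexible stalk that recruits translation factors, Mrpl34 is a small basic protein with a bacterial relative, and Mrps21 is the counterpart of bacterial S21. Apart from Mrpl53 the lowest levels were those of Mrps10 at 2.12 and Mrpl19 at 3.21. The median level was 22.6 FPKM for Mrpl and 16.9 FPKM for Mrps genes, and 165 FPKM for 84 cytosolic ribosomal protein genes. Mrpl12 had 150.1 ± 21.8 FPKM in AKI, 204 ± 17.9 FPKM with UC and 172 ± 13.6 FPKM with pFUS_UC (SD over 4 libraries). In Mrps10 libraries of 1 group differed more than groups did, from 6.23 to 24.7 CPM in AKI libraries, from 8.66 to 28.97 CPM in UC libraries and from 12.5 to 26.97 CPM in pFUS_UC libraries.

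The whole set took a larger share of the library in the kidneys that received cells. Its summed counts were 0.359% to 0.398% of an AKI library, 0.464% to 0.532% of a UC library and 0.475% to 0.505% of a pFUS_UC library. No AKI library reached the lowest value of either MSC group. For the Mrpl genes the share was 0.251 ± 0.0129% in AKI, against 0.331 ± 0.0183% with UC and 0.326 ± 0.00815% with pFUS_UC. For the Mrps genes it was 0.125 ± 0.00555%, 0.163 ± 0.0124% and 0.166 ± 0.00554% in the same order (SD over 4 libraries). The ratio of Mrpl to Mrps counts was 2.01 ± 0.0194 in AKI, against 2.04 ± 0.0479 with UC and 1.97 ± 0.0299 with pFUS_UC. The ratios of AKI overlapped those of both other groups. UC libraries, at 2.003 to 2.11, lay just above pFUS_UC libraries, at 1.93 to 2.002, and this gap was not tested. The mitochondrial ribosomal RNAs mt-Rnr1 and mt-Rnr2, the RNA core of the same ribosome, held 0.0456% to 0.152% of an AKI library, 0.211% to 0.509% of a UC library and 0.185% to 0.305% of a pFUS_UC library. How ribosomal RNA was treated in library preparation was not tested.

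**Figure D1:**
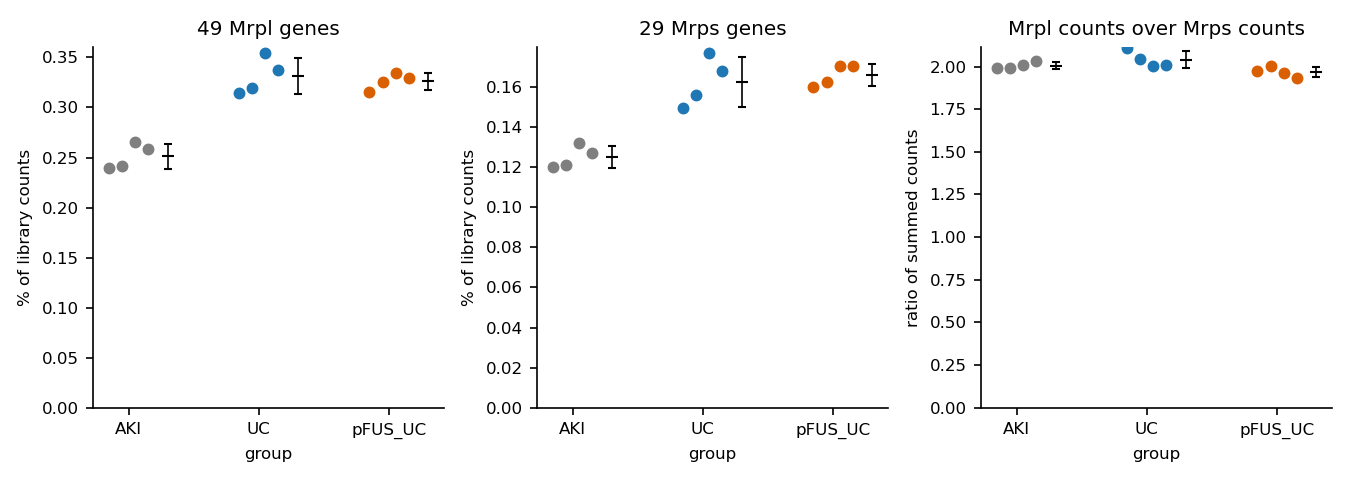
Share of library counts (percent) held by Mrpl genes and by Mrps genes, and the ratio of the summed counts, for each of 4 libraries per group; points are libraries, and the dash with bars is the mean and SD. All 4 AKI libraries lie below all MSC libraries in both shares, while the ratio stays between 1.93 and 2.11 in all 12 libraries.

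The AKI libraries also differed in composition. Genes of the mitochondrial genome took 2.87% to 7.12% of an AKI library, 8.57% to 18.6% of a UC library and 7.38% to 15.3% of a pFUS_UC library. Summed podocyte markers (6 of 6 above 0 in every group) ran from 668 to 1022 CPM in AKI libraries, from 116 to 249 CPM in UC libraries and from 192 to 301 CPM in pFUS_UC libraries. The 6 endothelial markers ran from 323 to 518, 75.8 to 170.4 and 118 to 168 CPM, and the 5 fibroblast markers from 251 to 578, 59.0 to 155 and 110.5 to 143 CPM. Tubule segments differed as well. The 7 markers of the thick ascending limb summed to 4940 to 7456 CPM in AKI libraries, 1368 to 3754 CPM in UC libraries and 2362 to 3935 CPM in pFUS_UC libraries, so AKI was above both MSC groups. Of these 7 markers 3 were called lower in each comparison with AKI and 0 higher, and 2 had positive log2 fold changes in pFUS_UC. The 4 markers of the distal convoluted tubule summed to 252 to 479 CPM with AKI, 251 to 944 CPM with UC and 1093 to 1374 CPM with pFUS_UC, which was above both other groups. Against AKI 2 of these 4 were called higher in UC and 4 in pFUS_UC. Summed proximal tubule markers, all 12 of them above 0, overlapped between groups (15481 to 23097, 11502 to 22685 and 17540 to 32555 CPM), but 5 of the 12 were called lower and 1 higher in UC (median log2 fold change -0.41), and 4 lower and 1 higher in pFUS_UC (median -0.25). The sums of principal cell, intercalated cell, macrophage and adipocyte markers in both MSC groups overlapped those in AKI, but single markers were called. In UC 3 of 5 adipocyte markers (median log2 fold change -2.18) and 2 of 6 macrophage markers (median -0.98) were lower. In UC 2 of 5 principal cell and 1 of 5 intercalated cell markers were higher. In pFUS_UC 1 of 5 adipocyte, 1 of 5 principal cell and 1 of 5 intercalated cell markers were higher, and 0 of 6 macrophage markers were called. The part of these cell types in the results on ribosomal protein genes was not tested, and in bulk tissue fewer cells of a type and less RNA per cell cannot be told apart. Gene length moved with the groups too: across protein-coding genes, relative expression and listed length had rank correlations of 0.157 to 0.377 in AKI libraries, -0.209 to -0.130 in UC libraries and -0.244 to 0.0112 in pFUS_UC libraries. Sample codes of the AKI libraries begin with KR, and those of the other libraries with K and a number. If the codes mark a batch, its effect and that of the groups cannot be told apart.

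UC was compared with AKI for the change that went with giving the cells. Mitochondrial ribosomal protein genes were mostly higher in UC. Of the 77 genes tested 52 (67.5%) rose and 1 fell by edgeR's quasi-likelihood test at an adjusted p under 0.05, where 24.1% of all 16947 tested genes rose and 24.3% fell. Their median log2 fold change was 0.52, a fold of 1.44, against 0.03 over all tested genes. The groups did not overlap for 51 genes that were higher and 1 that was lower, where 41.7% of all tested genes did not overlap in either direction. Of the 48 Mrpl genes 34 rose (70.8%, median 0.52) and 1 fell, and of the 29 Mrps genes 18 rose (median 0.55) and 0 fell. By place the counts were 36 of 50 (median 0.52) and 15 of 26 (median 0.58).

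Rises of at least 2-fold in UC were seen in Mrpl33, Mrpl52, Mrps18c, Mrpl23, Mrps21, Mrpl54 and Mrpl51. Mrpl33 (ENSMUSG00000106918, chromosome 5, 31754279 to 31821728, GRCm39), a small protein with a bacterial relative, was at 21.7, 19.4, 14.4 and 17.4 CPM in AKI, 68.6, 59.2, 63.3 and 43.3 CPM in UC, and 29.8, 43.3, 44.6 and 35.98 CPM in pFUS_UC. Every MSC library was above every AKI library, and UC and pFUS_UC overlapped. Its log2 fold change in UC was 1.69 (SE 0.18, edgeR adjusted p = 3.48e-05). The gene body overlaps Rbks and Gm43809.

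Mrpl52 (ENSMUSG00000010406, chromosome 14, 54664366 to 54667213), a large-subunit protein with no bacterial relative, was at 40.3, 45.6, 42.4 and 43.9 CPM in AKI and at 116, 108, 114 and 76.5 CPM in UC. In pFUS_UC it was at 69.1, 90.0, 96.3 and 77.8 CPM, so both MSC groups lay wholly above AKI. The log2 fold change in UC was 1.26 (SE 0.14, edgeR adjusted p = 4.16e-05). Mrpl23, which lies at the exit of the tunnel through which the new protein leaves, rose by 1.08 and Mrpl51 and Mrpl54, both mitochondrion-specific, by 1.02 and 1.03. Mrpl58, related to release factors and able to free stalled ribosomes, rose by 0.73 (64.0 ± 9.48 CPM in AKI and 106 ± 8.22 CPM in UC; SD, n = 4 each).

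Among Mrps genes, Mrps21 (ENSMUSG00000054312, chromosome 3, 95769946 to 95778831) was at 51.6, 57.5, 65.4 and 62.2 CPM in AKI, and at 128, 155, 112 and 103 CPM in UC. The pFUS_UC libraries had 97.6, 126, 177 and 149 CPM. Every MSC library stood above the AKI range, with a wide spread in pFUS_UC. The log2 fold change was 1.07 in UC (SE 0.18, edgeR adjusted p = 0.000329) and 1.21 in pFUS_UC (SE 0.18, adjusted p = 0.000229), the largest rise of any member in pFUS_UC. Mrps14, a universal protein of the small subunit, was at 32.5 to 35.2 CPM in AKI, 53.6 to 63.8 CPM in UC and 57.2 to 68.3 CPM in pFUS_UC. Mrps9 and Mrps33 rose by 0.85 and 0.90 in UC, and Mrps6, the counterpart of bacterial S6, by 0.77. Mrps6 overlaps Slc5a3 on the same strand and stood at 71.5 to 147 CPM in UC.

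**Figure D2:**
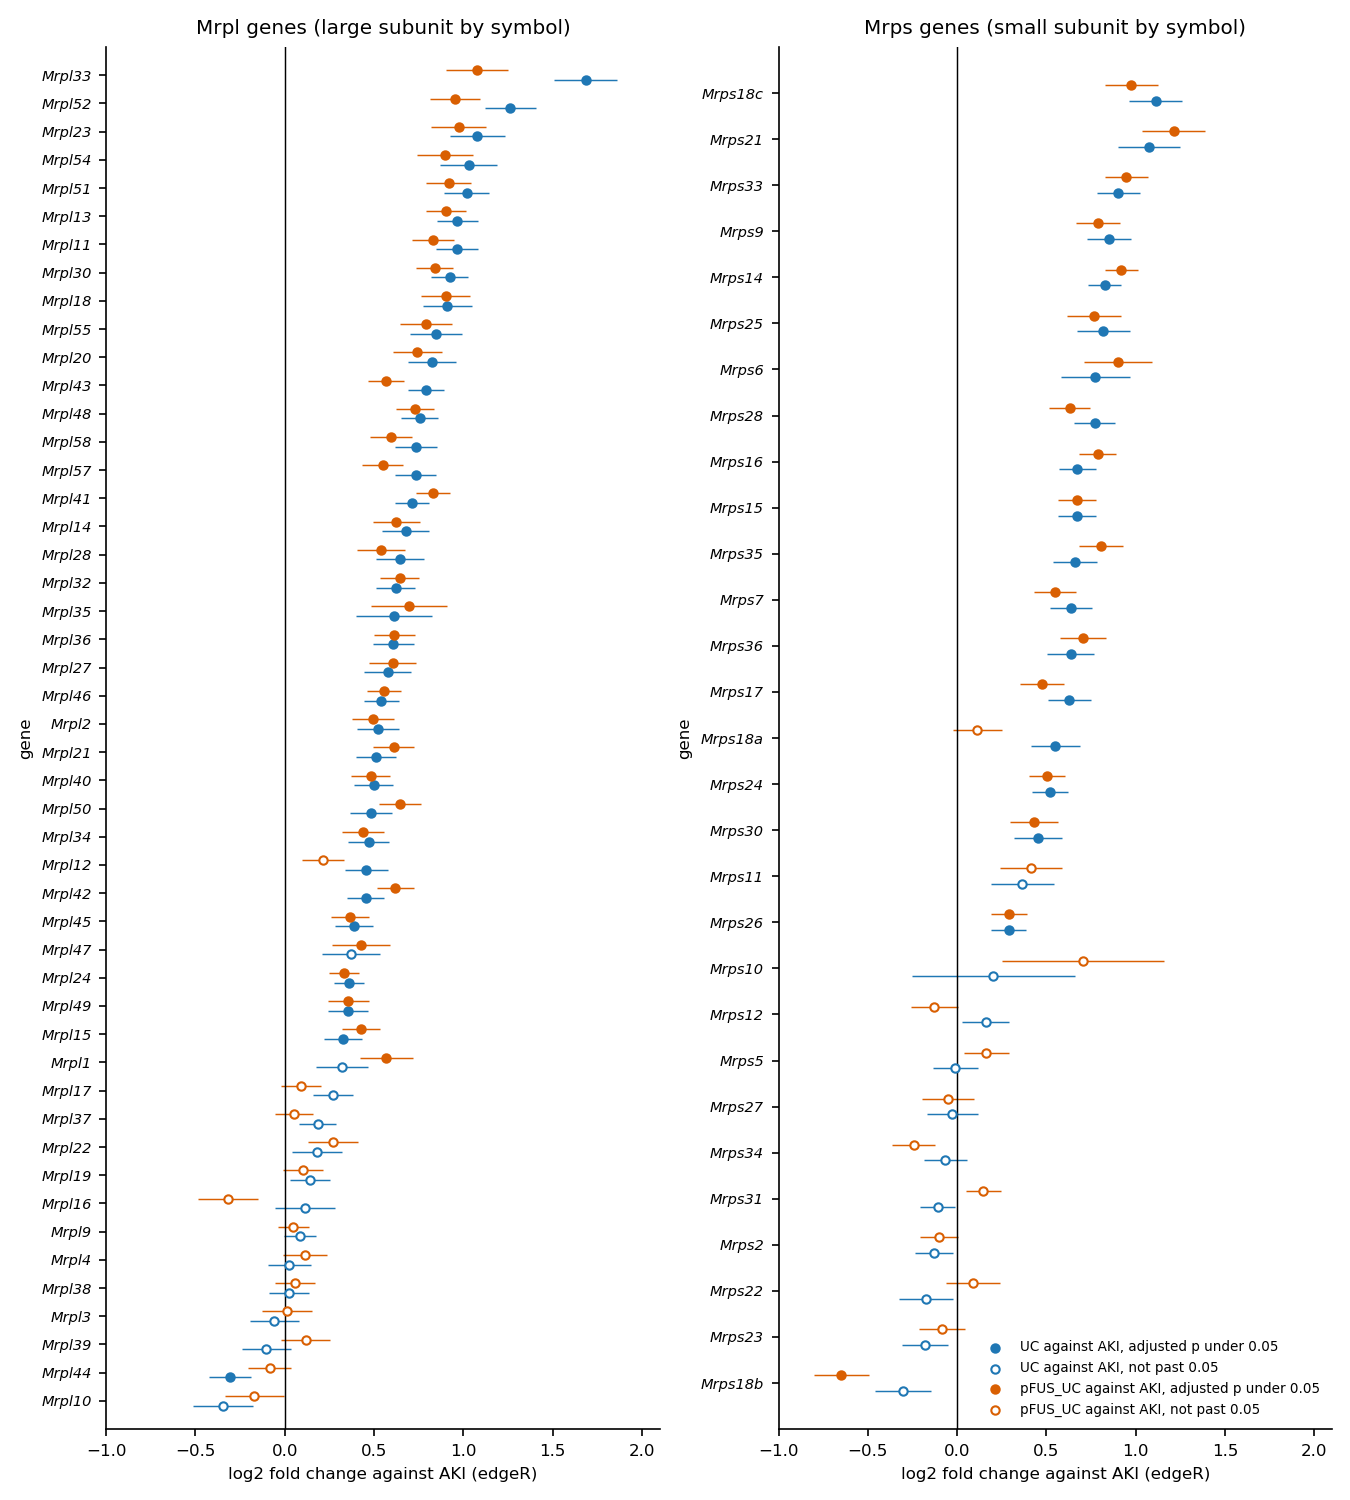
Log2 fold change against AKI of the 77 tested genes, Mrpl on the left and Mrps on the right, in UC and in pFUS_UC; bars are the SE, filled points passed an adjusted p under 0.05 and open points did not. In each comparison 52 filled points lie above 0 and 1 lies below it.

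The paralogues Mrps18a, Mrps18b and Mrps18c are all relatives of bacterial S18, and in the mitochondrial ribosome they occupy different places, the first in the large and the others in the small subunit. Ribosome nomenclature keeps the bacterial name for Mrps18c alone and counts the other two as mitochondrion-specific. Mrps18c (ENSMUSG00000016833, chromosome 5, 100946493 to 100952337) was at 10.1, 8.21, 7.37 and 8.46 CPM in AKI, 21.0, 19.1, 18.3 and 15.4 CPM in UC, and 14.1, 19.7, 17.5 and 15.9 CPM in pFUS_UC. It rose by 1.11 in UC (SE 0.15, edgeR adjusted p = 9.87e-05) and by 0.98 in pFUS_UC (SE 0.15, adjusted p = 0.000317), and both MSC groups were clear of AKI.

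Mrps18b (ENSMUSG00000024436, chromosome 17, 36221271 to 36227281) went the other way. Its libraries were at 14.3, 16.5, 14.6 and 17.97 CPM in AKI, 15.01, 11.6, 10.9 and 13.9 CPM in UC, and 12.5, 9.32, 8.64 and 9.94 CPM in pFUS_UC. The pFUS_UC libraries lay below the AKI libraries, and the UC libraries overlapped both. It fell by 0.65 in pFUS_UC (SE 0.16, edgeR adjusted p = 0.00487), and in UC its log2 fold change was -0.30 (adjusted p = 0.121).

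Mrps18a (ENSMUSG00000023967, chromosome 17, 46421912 to 46439836) was at 47.1, 55.5, 75.8 and 70.1 CPM in AKI, 89.6, 90.2, 103 and 81.1 CPM in UC, and 66.0, 71.0, 63.5 and 68.4 CPM in pFUS_UC. Only UC was clear of the other groups. It rose by 0.55 in UC (SE 0.14, edgeR adjusted p = 0.00519), while its log2 fold change in pFUS_UC was 0.11 (adjusted p = 0.527). Its difference between pFUS_UC and UC was -0.44 (SE 0.14, edgeR adjusted p = 0.591), which did not pass.

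**Figure D3:**
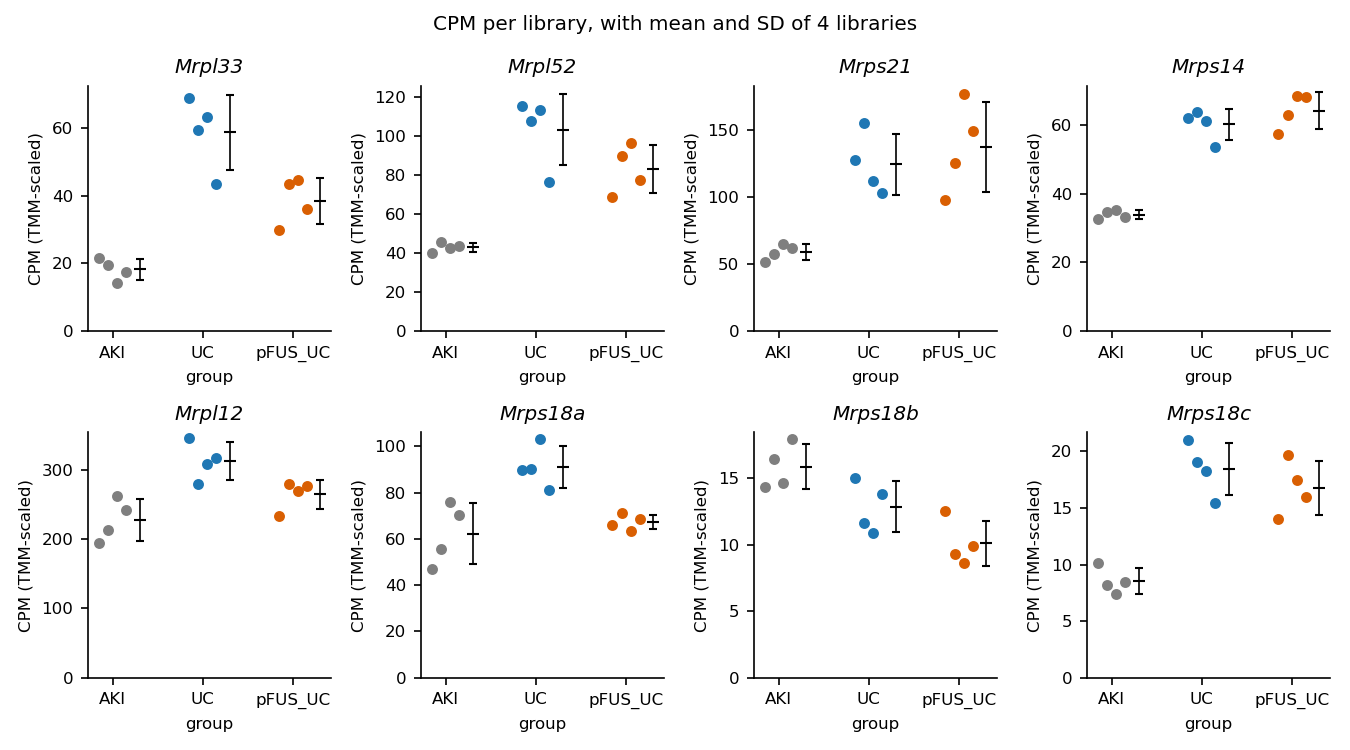
CPM of 8 genes in each of the 12 libraries by group; points are libraries, and the dash with bars is the mean and SD of 4. Mrpl33, Mrpl52, Mrps21, Mrps14 and Mrps18c are higher in every MSC library than in any AKI library, Mrps18b is lowest in pFUS_UC, and Mrps18a and Mrpl12 are highest in UC.

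A single gene fell in UC. Mrpl44, a large-subunit protein related to ribonuclease III, was at 36.4, 35.3, 46.5 and 41.1 CPM in AKI and 29.6, 34.5, 30.7 and 34.1 CPM in UC, against 40.5, 35.7, 32.1 and 41.9 CPM in pFUS_UC. UC was just below AKI, and pFUS_UC overlapped both. The log2 fold change of -0.31 had an edgeR adjusted p of 0.046. Leaving out a single library (replicates 3 and 4 of AKI, 1, 2 and 3 of UC, and 1 and 2 of pFUS_UC) took it past the threshold, with adjusted p values from 0.0505 to 0.14. Mrpl10, which anchors the stalk formed by Mrpl12, was at -0.35 and did not pass (adjusted p = 0.101; not chosen by the rule for named genes but after its value was seen). Mrpl12 itself rose by 0.46 in UC, from 228 ± 30.2 to 313 ± 27.2 CPM (SD, n = 4 each; adjusted p = 0.00653), and was at 0.22 in pFUS_UC (adjusted p = 0.155). Mrpl34 rose by 0.47 and Mrps36 by 0.64, and Mrps30 rose by 0.46 (adjusted p = 0.0133) with UC libraries at 28.6 to 40.9 CPM and AKI libraries at 22.5 to 31.1 CPM. Mrpl19 and Mrps10, lowest in FPKM among the members with counts, were at 0.14 and 0.20 and did not pass.

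The genes were also grouped by conservation. Proteins shared with bacteria alone rose in 16 of 19 cases in UC (median 0.62), and proteins found in all ribosomes in 15 of 27 (median 0.37). Mitochondrion-specific proteins of the large subunit by place rose in 16 of 20 cases (median 0.52), and those of the small subunit in 4 of 10 (median -0.05). Mrps25, Mrps26, Mrps33 and Mrps35 were the small-subunit genes in that class that rose, while Mrps22, Mrps23, Mrps27, Mrps31 and Mrps34 had log2 fold changes from -0.18 to -0.03 and Mrps18b was at -0.30. The 5 bacterial-type small-subunit genes, Mrps6, Mrps16, Mrps18c, Mrps21 and Mrps28, all rose (median 0.77). These classes were assigned from general knowledge with earlier results of these data known, and no test was made between them. In pFUS_UC the counts in the same order were 15 of 19, 17 of 27, 15 of 20 and 4 of 10 (medians 0.63, 0.50, 0.55 and 0.12), with Mrps18b as the 1 gene that fell. With an offset for gene length, described further on, the UC counts were 9 of 19 (median 0.32), 12 of 27 (0.34), 10 of 20 (0.33) and 4 of 10 (-0.13). The bacterial class then no longer had the highest median. Of its 5 small-subunit genes 3 were called higher in UC with the offset (median 0.44), and Mrps6 and Mrps28 were not.

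**Figure D4:**
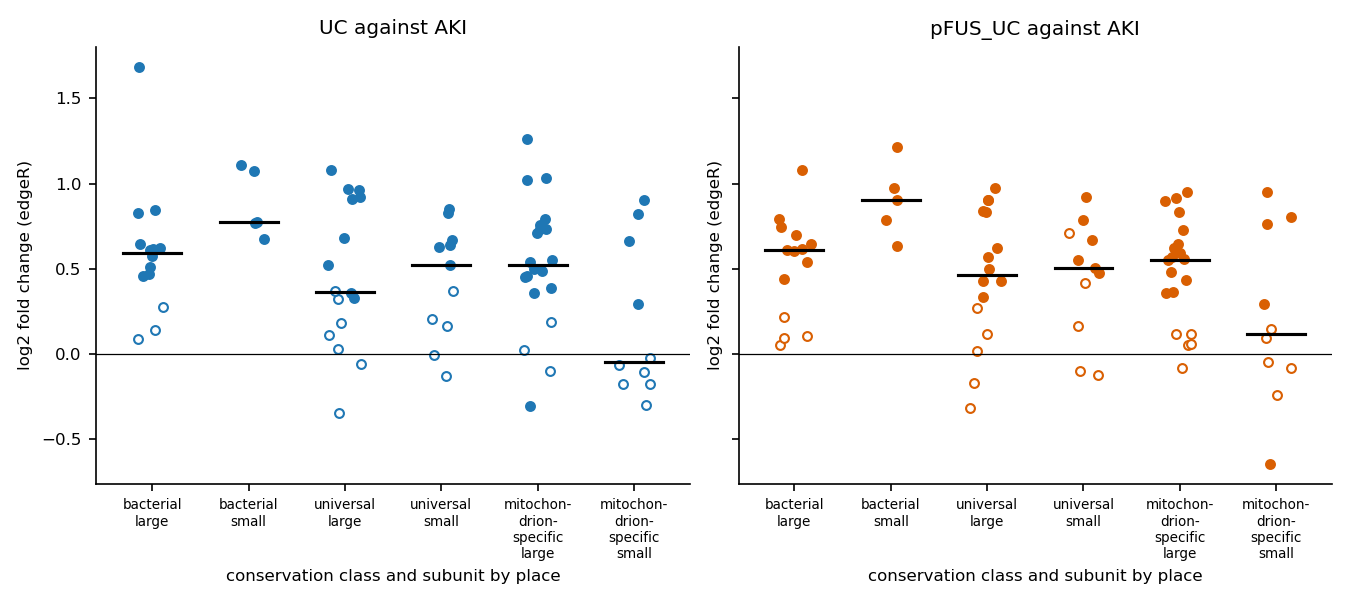
Log2 fold change against AKI by conservation class and subunit by place, in UC and pFUS_UC; each point is a gene, filled where edgeR's adjusted p was under 0.05, and black lines are class medians. Mitochondrion-specific small-subunit genes have the lowest medians, -0.05 in UC and 0.12 in pFUS_UC.

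Some large-subunit proteins belong to known functional sites, each with few genes. Of the 3 stalk genes Mrpl11 rose by 0.96 in UC, Mrpl12 by 0.46, and Mrpl10 was at -0.35. All 5 tunnel-exit genes had positive log2 fold changes in both comparisons, with 3 called higher in UC (median 0.37), led by Mrpl23, and 4 in pFUS_UC (median 0.37). Of 4 genes of the central protuberance 3 were called higher in each comparison (medians 0.52 and 0.52), and Mrpl38 was at 0.02 in UC. In pFUS_UC 1 of the 3 stalk genes was called higher, Mrpl11 at 0.83. With the length offset, 2 of 5 tunnel-exit genes and 1 of 4 central protuberance genes were called higher in each comparison. A single tunnel-exit gene was then called lower in UC. Of the 3 stalk genes 1 was then called higher, Mrpl11, and 1 lower, Mrpl10, in each comparison.

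pFUS_UC was compared with AKI for the change that went with ultrasound and cells together. Again 52 of 77 genes rose (median log2 fold change 0.55, against 0.02 over all tested genes) and 1 fell, where 21.9% of all tested genes rose and 22.1% fell. The groups did not overlap for 48 higher genes and 1 lower gene, where 40.8% of all tested genes did not overlap in either direction. Of Mrpl genes 35 of 48 rose (median 0.56), and of Mrps genes 17 of 29 (median 0.50) with Mrps18b lower. Mrpl33 and Mrps21 rose at least 2-fold, and Mrpl33 had a log2 fold change of 1.08 (SE 0.17, edgeR adjusted p = 0.000433). Mrpl23, Mrpl52, Mrpl51 and Mrpl13 rose by 0.97, 0.95, 0.92 and 0.90, and Mrps33, Mrps14 and Mrps6 by 0.95, 0.92 and 0.90. Mrpl54, Mrps36, Mrpl58, Mrpl34 and Mrps30 rose by 0.90, 0.71, 0.59, 0.44 and 0.43. With the length offset Mrpl54 (adjusted p = 0.0794) and Mrps36 (0.0935) were not called, and Mrpl34 was at -0.24 (0.141). Mrps30 was not called once AKI replicate 1, AKI replicate 2 or pFUS_UC replicate 3 was left out (adjusted p from 0.0533 to 0.0612).

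Both comparisons use the same AKI libraries, so likeness between them is not independent. Set side by side, 50 genes were called higher in both, 2 in UC alone (Mrpl12 and Mrps18a), 2 in pFUS_UC alone (Mrpl1 and Mrpl47), and 23 in neither. Mrpl1 was at 0.32 in UC (adjusted p = 0.088) and 0.57 in pFUS_UC (adjusted p = 0.00742), and Mrpl47 at 0.37 (0.0776) and 0.43 (0.0479).

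The direct comparison of pFUS_UC with UC was made for the change that went with adding ultrasound. Some marker sums also differed between these groups. Summed adipocyte markers were at 9.52 to 64.1 CPM in UC and 64.4 to 236 CPM in pFUS_UC, just short of an overlap. Summed distal convoluted tubule markers were also higher in pFUS_UC, and the other marker sums overlapped. By edgeR 0 of 5 adipocyte markers and 0 of 4 distal convoluted tubule markers were called in this comparison. The part of such differences in this comparison was not tested. No member was called in either direction by edgeR (0% of all tested genes were called higher and 0% lower) or by DESeq2, which called 44 genes in all. Without adjustment 8 members had a p under 0.05, as did 1342 of the 16947 genes. The groups did not overlap for 2 members, Mrpl12 and Mrps18a, both lower in pFUS_UC, where 3.9% of all tested genes did not overlap. Mrpl33 had the smallest p, with a log2 difference of -0.61 (SE 0.17, edgeR adjusted p = 0.58). Mrpl16 was at -0.43 (SE 0.17) and Mrps31 at 0.26 (SE 0.10), with adjusted p values of 0.604 and 0.597. Mrpl16 libraries were at 29.6 to 45.2 CPM in UC and 22.2 to 34.1 CPM in pFUS_UC, and Mrps31 libraries at 18.1 to 21.1 and 20.6 to 24.8 CPM. The medians were -0.03 for Mrpl and 0.00 for Mrps genes, and the values of single members ran from -0.61 to 0.50.

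The fold changes depended on how gene length was treated. With an offset for each library's dependence on gene length, 35 members were called higher and 5 lower in UC, where 21.2% of all tested genes were called higher and 22.6% lower. In pFUS_UC 35 were called higher and 6 lower, where 18.2% and 20.7% of all tested genes were. The medians were 0.25 for Mrpl and 0.35 for Mrps genes in UC and 0.25 and 0.32 in pFUS_UC. Of the 53 members called in UC without the offset 34 were called with it. Mrpl33, Mrpl13, Mrpl23, Mrpl51, Mrps14 and Mrps9 kept log2 fold changes of 1.89, 1.19, 1.17, 1.06, 0.80 and 0.99 in UC. Others were lower than without it but still called: Mrpl52 was at 0.76, Mrps18c at 0.60, Mrps33 at 0.56, Mrps21 at 0.44 and Mrpl54 at 0.44. Mrps6 was at 0.40 (adjusted p = 0.102), Mrps36 at 0.18 (0.204), Mrpl12 at 0.08 (0.577) and Mrpl34 at -0.21 (0.193). Mrps18b, Mrpl44, Mrpl10 and Mrps23 were called lower with the offset in both comparisons. They were at -0.54, -0.65, -0.68 and -0.54 in UC and at -0.88, -0.42, -0.49 and -0.44 in pFUS_UC. Mrpl22 (-0.36) was called lower with the offset in UC alone, and Mrps12 (-0.64) and Mrps34 (-0.48) in pFUS_UC alone. In pFUS_UC Mrps21 was at 0.57, Mrpl52 at 0.44, Mrps18c at 0.46, Mrpl54 at 0.29 (0.0794), Mrps36 at 0.25 (0.0935) and Mrpl34 at -0.24 (0.141). Across the 77 members the rank correlation of listed gene length and log2 fold change in UC was -0.14 without and 0.48 with the offset, and across 14172 protein-coding genes -0.26 and 0.02. These are descriptions across genes, which share libraries. Which of the scales is nearer to the RNA content of the tissue was not tested.

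**Figure D5:**
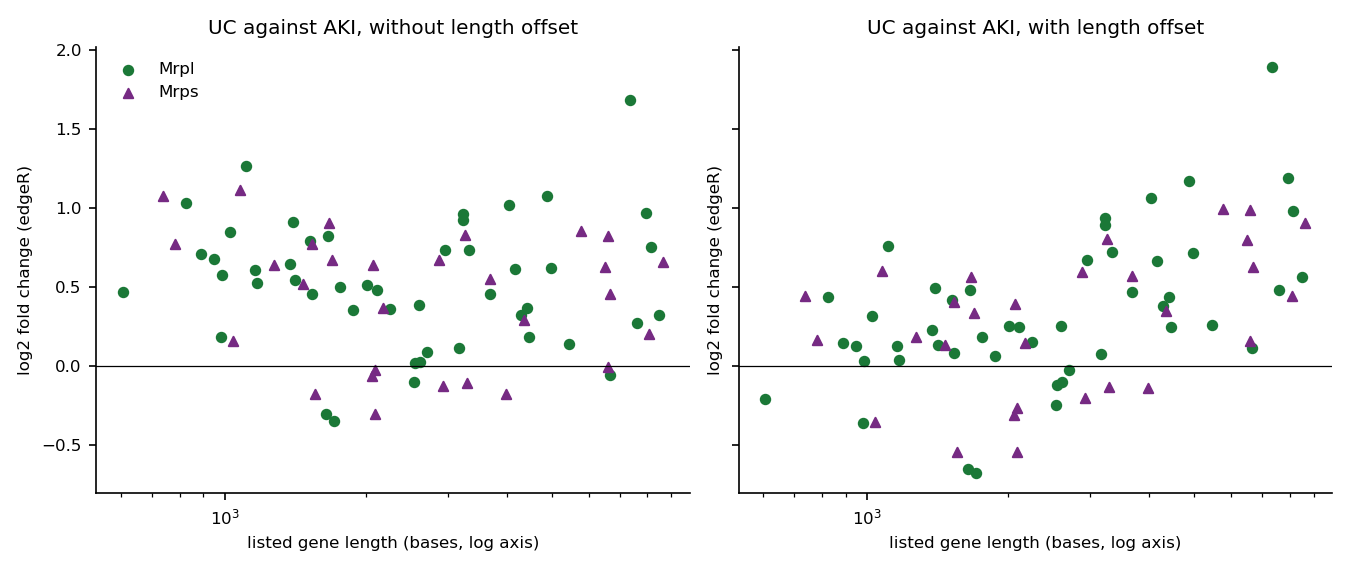
Log2 fold change in UC against AKI of the 77 tested genes by listed gene length (log axis), without and with a length offset; circles are Mrpl and triangles Mrps genes. Without the offset the rank correlation is -0.14, and with it 0.48, with short genes lower on the right.

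The other genes of mitochondrial translation are counted against all tested genes, of which 24.1% rose and 24.3% fell in UC and 21.9% and 22.1% in pFUS_UC. Mitoribosome proteins with other names rose in 2 of 5 cases in both comparisons. Chchd1 rose by 0.996 in UC and 0.92 in pFUS_UC, and Aurkaip1 by 0.51 and 0.49, both small-subunit proteins. Gadd45gip1, a large-subunit protein, was at 0.19 and -0.09. Of 28 assembly factors 11 rose and 3 fell in UC (39.3% and 10.7%) and 10 and 3 in pFUS_UC (35.7% and 10.7%). Mettl17, needed for small-subunit assembly, rose by 0.91 and 0.82, Rcc1l by 0.53 and 0.32, and Mief1 fell by 0.49 and 0.53. With the length offset 8 of the 28 assembly factors rose and 4 fell in each comparison (28.6% and 14.3%). Of all tested genes 21.2% rose and 22.6% fell with the offset in UC, and 18.2% and 20.7% in pFUS_UC.

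Of 17 translation factors 5 rose and 4 fell in UC (29.4% and 23.5%) and 3 and 3 in pFUS_UC (17.6% each), shares near those of all tested genes. Mtres1, a factor for stalled mitochondrial ribosomes, rose by 1.23 and 1.22, whereas the elongation factor gene Gfm1 fell by 0.80 and 0.57 and Taco1, an activator of Cox1 translation, by 1.30 and 1.17. Of 20 aminoacyl-tRNA synthetase and amidotransferase genes 3 rose and 3 fell in each comparison, below the shares of all tested genes, with Lars2 at 0.94 and 1.48, Tars2 at 0.66 and 0.43 and Yars2 at -0.51 and -0.38. Of 13 genes of mitochondrial DNA upkeep and transcription 4 rose and 1 fell in UC and 3 and 1 in pFUS_UC. Ssbp1, which binds single-stranded mitochondrial DNA, rose by 1.34 and 1.28, the polymerase gene Polg fell by 0.32 and 0.45, and Mterf1a rose by 1.66 and 1.54 at 1.35 to 4.30 CPM on average, where reads may be shared with its near copy Mterf1b. With the length offset 2 genes of that list rose in UC and 4 in pFUS_UC, and 0 fell in either. Of the 5 mitoribosome proteins with other names 1 then rose in each comparison.

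Cytosolic ribosomal protein genes rose more often, 72 of 82 in UC (median 1.14) and 67 of 82 in pFUS_UC (median 0.91). Nuclear genes of complex I, whose mitochondrial partners this ribosome makes, rose in 30 of 38 cases in each (medians 0.83 and 0.82), and 1 fell in UC. With the length offset 64 of 82 cytosolic ribosomal protein genes (median 0.74) and 20 of 38 complex I genes (median 0.42) rose in UC, and 2 complex I genes fell. In pFUS_UC with the offset 50 of 82 cytosolic genes rose and 1 fell (median 0.63), and 20 of 38 complex I genes rose and 1 fell (median 0.45). Whether these lists differ from the mitochondrial ribosomal protein genes was not tested.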

How the data were processed

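The deposited table of counts holds the authors' raw counts per gene, as the whole-number values show. The tools HTSeq and DESeq2 and the assembly GRCm39 (mm39) are named, with no version or role, per the submitters' processing notes. The aligner is not given in the sources used here, nor are library selection and strand setting. A second deposited table holds FPKM values that the authors computed from counts and the listed gene length; per the values, each library was divided by a scaled total. Gene lengths, symbols, coordinates and biotypes are the authors'. No column of another series was present (0).

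Counts of all 12 libraries were fitted together with edgeR 4.0.16 (limma 3.58.1, R 4.3.3). Genes were kept by filterByExpr (minimum count 10, minimum total 15), which left 16947; libraries were scaled by TMM and compared by the quasi-likelihood F-test, with Benjamini-Hochberg adjustment over all tested genes and a threshold of 0.05. CPM are TMM-scaled. The SE of a log2 fold change is its size over the root of F. The fit was tested on simulated data with known changes. The limits given for genes with no count cover counting error only, while the SE also takes in the spread between libraries.

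Named members are, per comparison, subunit and direction, up to 5 called genes with the largest change and at least 5 CPM in the higher group, or the 2 with the smallest p where none passed, every called lower gene, Mrps18a, Mrps18b, Mrps18c, Mrps30, Mrps36, Mrpl12, Mrpl58, and the 3 highest and 3 lowest in FPKM. For each pathway list, up to 3 genes with the smallest p in UC against AKI are named. Members, lists and tests were chosen with earlier results of these data known. As alternatives, DESeq2 1.42.0 was run, and edgeR was rerun with DESeq2 size factors, without the filter, on each pair of groups by itself, with the replicate number as a block, with an offset from a lowess curve of counts on gene length, without each library in turn, and without UC libraries 1 and 2. For promoters the first RefSeq entry of a symbol was used.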

Additional observations from a re-analysis of the deposited data

Results flagged for a closer look

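In 2 of 72 groups of 4 libraries, over 24 named genes and 3 groups, 1 library stood apart from the other 3 by Dixon's test; chance flags about 1 in 20 groups. Mrps6 was at 49.1 CPM in AKI replicate 4, where the other AKI libraries were at 65.9 to 67.3 CPM. Mrps31 was at 21.7 CPM in AKI replicate 4, where the others were at 20.3 to 20.4 CPM, a small gap that stands out because the 3 others were nearly equal.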

How the results depend on the processing

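Members called higher were 48 to 53 in both comparisons against AKI when 1 library was left out, and 0 were called between pFUS_UC and UC under any alternative. With 1 library left out, 7090 to 8443 of all genes were called in either direction in UC against AKI, and 5945 to 7740 in pFUS_UC against AKI. With all libraries these numbers were 8210 and 7463. The count of members called lower in UC against AKI, 1 with all libraries, was 0 with no filter on low counts, with only the groups compared, with the replicate block and without UC libraries 1 and 2, 5 with the gene length offset, and 0 to 2 when 1 library was left out. In pFUS_UC against AKI it was 6 with the length offset and 1 to 2 when 1 library was left out. The length offset put the median log2 fold change of Mrpl and Mrps genes at 0.254 and 0.347 in UC and at 0.246 and 0.316 in pFUS_UC. It turned Mrpl34, at 607 bases the shortest member by listed length, to -0.21 in UC and -0.24 in pFUS_UC. The offset acts by gene length, and why libraries differ in their dependence on length was not tested. Without the offset, left-out libraries moved the medians of Mrpl and Mrps genes within 0.490 to 0.551 and 0.511 to 0.649 in UC, within 0.527 to 0.606 and 0.445 to 0.573 in pFUS_UC, and within -0.048 to 0.038 and -0.022 to 0.052 in pFUS_UC against UC.

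Same-numbered samples did not deviate together (correlations from -0.165 to 0.147 over 12 pairs, 2 of them over 0.1), so the numbers were not taken to pair samples. With the replicate block 52 members were called in UC and 53 in pFUS_UC against AKI, where 7791 and 7044 of all genes were called. Mrpl44 in UC was then at -0.31 (edgeR adjusted p = 0.0726). UC libraries 1 and 2 had the highest mitochondrially encoded shares (18.6% each). Without them 43 members were called in UC, all among the 53. Over all genes 5414 were then called in UC, against 8210 with all libraries. Mrps30 in UC was then at 0.26 (edgeR adjusted p = 0.206). Mrpl44 lost its call in UC without AKI replicate 3 or 4, UC replicate 1, 2 or 3, or pFUS_UC replicate 1 or 2 (adjusted p from 0.0505 to 0.14). Mrps30 lost its call in pFUS_UC with no filter (0.0502) and without AKI replicate 1 or 2 or pFUS_UC replicate 3 (0.0533 to 0.0612).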
